A study of Mus musculus with 16 samples.

Results

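The comparison described here is that of 6DT1 cells carrying an empty lentiviral vector with 6DT1 cells carrying a lentivirus made to express CLIC4, all of them treated with 1 µM hydrogen peroxide (H2O2) and lysed after 24 h. It holds 8 of the 16 RNA-seq libraries of the study, 4 for each vector, and was chosen by the library titles alone (empty vector, libraries 13 to 16; lentivirus, libraries 5 to 8). 6DT1 is a mouse mammary cancer cell line, labelled with the strain FVB/N1, and both groups share the line, the H2O2 and a lentiviral vector. The labels conflict on genotype. Descriptions of single samples name the empty-vector cells as a CLIC4 knockout and the lentivirus cells as wild type, whereas the design text speaks of the vectors alone. The promoter that drives CLIC4, and whether either population is a single clone, are not stated in the sources used here. Separate cultures are not documented for the 4 libraries of a group. The p-values therefore reflect the spread among these libraries alone, which may be technical.

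CLIC4 belongs to the chloride intracellular channel family, small proteins with a glutathione S-transferase-like fold that exist in soluble and membrane-bound forms. It is known from the cytoplasm, the nucleus and mitochondrial membranes, and an oxidoreductase activity has been ascribed to the family. Hydrogen peroxide is removed by catalase, peroxiredoxins and glutathione peroxidases. The title of the series names the function of mitochondria and oxidant resistance, and the comparison asks how the transcriptomes of the 2 vector populations differed in the presence of the oxidant.

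Total counts per library ran from 51.7 M to 61.9 M. Library 5, of the lentivirus group, stood apart in one respect: the share of counts on mitochondrially encoded mRNAs was 1.18%, compared with 2.18% to 2.61% in libraries 6 to 8 and 2.3% to 2.95% in libraries 13 to 16. Its log2 CPM still correlated with those of its group within the range of the other pairs (Pearson's r over genes 0.9977 to 0.9989 within groups and 0.9547 to 0.9609 between them). Its counts nevertheless departed most from those of its group (chi-square per degree of freedom 23.2 to 41.4, against 5.05 to 20.1 in the other pairs within groups). Results that rest on it are given with and without it. Among the keratins of mammary epithelium, Krt8, Krt18 and Krt19 were abundant in both groups. The epithelial markers Epcam (2 counts over the empty-vector group and 1 over the lentivirus group) and Cdh1 (0.0313 ± 0.0172 against 0.05 ± 0.0577 CPM) were near 0. The listed markers were thus split and do not settle the labelled mammary origin. Of 12 listed markers of mammary epithelium, only 4 were expressed highly enough to be tested. All levels below are TMM-scaled CPM (counts divided by library size), given as the mean ± SD over the 4 libraries of a group, empty vector first.

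Clic4 itself (chromosome 4, 135213969 to 135272814, mm10) stood at 46.3, 42.8, 44.1 and 40.5 CPM in empty-vector libraries 13 to 16 and at 255, 265, 236 and 240 CPM in lentivirus libraries 5 to 8. The groups did not overlap, and the lentivirus libraries were 5.73-fold higher (log2 change, empty vector minus lentivirus, -2.52 with a standard error of 0.047; edgeR quasi-likelihood adjusted p = 7.74e-15). The table does not separate reads of the transferred gene from those of the cell's own gene, and the empty-vector libraries retained transcripts counted to Clic4. Its relative Clic1, the most widely expressed member of the family, was higher with the empty vector at 319 ± 10.2 against 252 ± 5.47 CPM (log2 change 0.34, edgeR adjusted p = 1.01e-07). Libraries 13 to 16 stood at 309, 314, 333 and 320 CPM and libraries 5 to 8 at 252, 259, 251 and 246 CPM, without overlap. Clic5 had 36 counts over the empty-vector group and 2 over the lentivirus group, Clic3 had 1 and 2, and both were too low to be tested.

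The vectors differed in most expressed transcripts. Of 13963 genes tested, 75.1% passed an adjusted p of 0.05 in edgeR's quasi-likelihood test, 5183 higher (37.1%) and 5308 lower (38%) with the empty vector, where "higher" and "lower" here and below always mean the empty vector relative to the lentivirus. Most of these differences were small: 5499 genes (39.4%) passed with a log2 change under 0.5, 19.2% higher and 20.2% lower. A moderate change, here a log2 change of 0.5 to 1 (1.41-fold to 2-fold), was found for 2544 genes (18.2%), of which 1144 (8.19%) were higher and 1400 (10%) lower. At least 2-fold differences were found for 2448 genes (17.5%), 1362 higher (9.75%) and 1086 lower (7.78%) (746 and 339 on the log2(FPKM + 1) scale of the deposited FPKM table, tested with limma). The values of the groups did not overlap for 70.3% of the genes tested (34.9% higher and 35.4% lower).

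The share of genes called at least 2-fold different fell with the mean level of the gene. A gene of low mean can pass the expression filter through 1 group alone, and small changes are harder to call at low counts. The part of the filter and of counting precision in this trend was not tested. Among 2147 genes under 1 CPM, 41.8% were called at least 2-fold different, against 31% of 2587 genes at 1 to 10 CPM, 9.42% of 7004 genes at 10 to 100 CPM and 3.91% of 2225 genes over 100 CPM. Genes over 100 CPM with a 2-fold difference were mostly higher with the empty vector (65 higher, 22 lower). The median log2 change over all genes tested was -0.01, so the shifts of gene groups below stand against a centre near 0. Counts of list members called below stand against 37.1% higher and 38% lower over all genes tested.

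**Figure D1:**
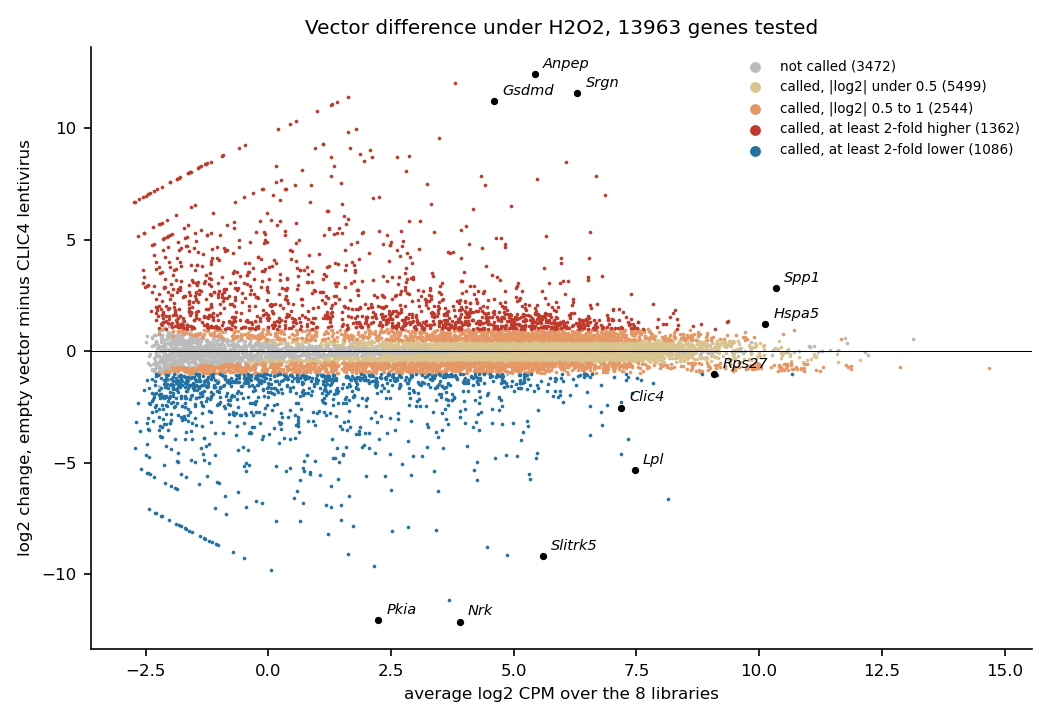
Log2 change (empty vector minus CLIC4 lentivirus, both under H2O2) of each of 13963 genes tested against its average log2 CPM over the 8 libraries, coloured by whether edgeR called it and by the size of the change. Genes changed at least 2-fold lie mostly at low levels, moderate changes at all levels, and among genes over 100 CPM the 65 higher outnumber the 22 lower.

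The largest fold differences were those of genes read in 1 population and almost silent in the other. Anpep (chromosome 7, 79821803 to 79861059), which encodes the surface peptidase aminopeptidase N, stood at 85.6, 87.9, 86.9 and 83.8 CPM in libraries 13 to 16, while libraries 5 to 8 held 3 counts in all (ratio 6385, exact 95% counting interval 2185 to 30970). Such intervals cover counting error only. Srgn (chromosome 10, 62493833 to 62527451), the core protein of the granule proteoglycan serglycin, stood at 158, 148, 164 and 159 CPM against 0.116, 0.037, 0.018 and 0.0327 CPM (log2 change 11.57, edgeR adjusted p = 2.63e-18; 12.29 without library 5). Gsdmd, which encodes the pore-forming gasdermin D of pyroptosis, stood at 49, 48.4, 49 and 47.8 CPM against 4 counts in the lentivirus group, all 4 of them in library 6 (log2 change 11.23, 14.41 without that library). Groups without overlap were a condition for picking these genes, so their separation is no result.

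Slc2a3, the high-affinity glucose transporter GLUT3, was at 127, 125, 143 and 136 CPM against 0.348, 0.407, 0.36 and 0.359 CPM (log2 change 8.48 ± 0.078, SE; edgeR adjusted p = 1.52e-18). Gfpt2, an isoform of the enzyme that commits glucose to hexosamine synthesis, was at 28.6, 25.1, 30.4 and 27.4 CPM against a single count in libraries 5 to 8 (ratio 6209, interval 1114 to 245300). Its log2 change was 12.02, and 13.59 without library 8, which held the count. Tnfsf13b, the B cell survival factor BAFF, was at 22.1 ± 1.95 against 0.0266 ± 0.0235 CPM, and Ccr4, a chemokine receptor, at 12.2 ± 0.284 against 0.0255 ± 0.0279 CPM (log2 changes 9.56 and 8.70, the latter 9.70 without library 8). The remaining genes of this kind were Uox, urate oxidase, at 8.26 ± 0.935 against 0.0132 ± 0.00886 CPM (ratio 613.3, interval 209.5 to 2977), Wfdc2 and Fcho1. Wfdc2, a whey acidic protein-domain protease inhibitor, was at 14.4 ± 0.953 against 0.0315 ± 0.00897 CPM and Fcho1, a protein of clathrin-coated pit formation, at 13.8 ± 0.96 against 0.0499 ± 0.0184 CPM. A call and groups without overlap were conditions for picking these 10 genes.

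In the other direction, Slitrk5 (chromosome 14, 111675097 to 111683141) encodes a leucine-rich repeat adhesion protein of neurons. It was at 0.0929, 0.212, 0.202 and 0.145 CPM in libraries 13 to 16 and 96.6, 96.7, 98.3 and 94.9 CPM in libraries 5 to 8 (log2 change -9.18 ± 0.079, SE; edgeR adjusted p = 6.81e-19). Slc40a1 (chromosome 1, 45908068 to 45926523), the iron exporter ferroportin, was at 0.241, 0.0707, 0.0506 and 0.0543 CPM against 61.7, 61.9, 55.9 and 54.3 CPM (log2 change -9.13; -9.91 without library 13). Pkia, which encodes a heat-stable peptide that blocks protein kinase A, was without a count in libraries 13 to 16 and at 9.3, 10.1, 8.79 and 9.57 CPM in libraries 5 to 8, at least 707-fold lower against a floor of 3 counts over the empty-vector group. These 3 genes, too, were picked among genes whose groups did not overlap, so their separation is no result.

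Nrk, a kinase of the X chromosome, was at 32.9, 28.1, 30.3 and 28 CPM in the lentivirus libraries and had 1 count in the empty-vector group, in library 14. The ratio of lentivirus to empty vector was 6688 (interval 1200 to 264200) and the log2 change -12.12, or -13.70 without library 14. Tmtc2, a mannosyltransferase of the endoplasmic reticulum that acts on cadherins, was at 0.00884 ± 0.0177 against 25.5 ± 0.391 CPM (ratio 2871, interval 794.4 to 23710; log2 change -11.16, and -13.48 without library 14). Fam135b was at 0.0997 ± 0.0827 against 43.5 ± 3.5 CPM (log2 change -8.76; -9.48 without library 13) and Cgn, the tight junction plaque protein cingulin, at 0.0409 ± 0.0312 against 11.3 ± 0.624 CPM (-8.07). Gxylt2, a xylosyltransferase that extends the sugars of Notch, was at 0.0794 ± 0.0357 against 21.2 ± 0.601 CPM and Fhit, a diadenosine triphosphate hydrolase, at 0.0584 ± 0.0191 against 14.3 ± 0.849 CPM. Cyp39a1, an oxysterol hydroxylase of bile acid synthesis, was at 0.00895 ± 0.0103 against 8.78 ± 0.503 CPM (ratio 989.7, interval 273.6 to 8178). The same conditions applied to these 10 genes.

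**Figure D2:**
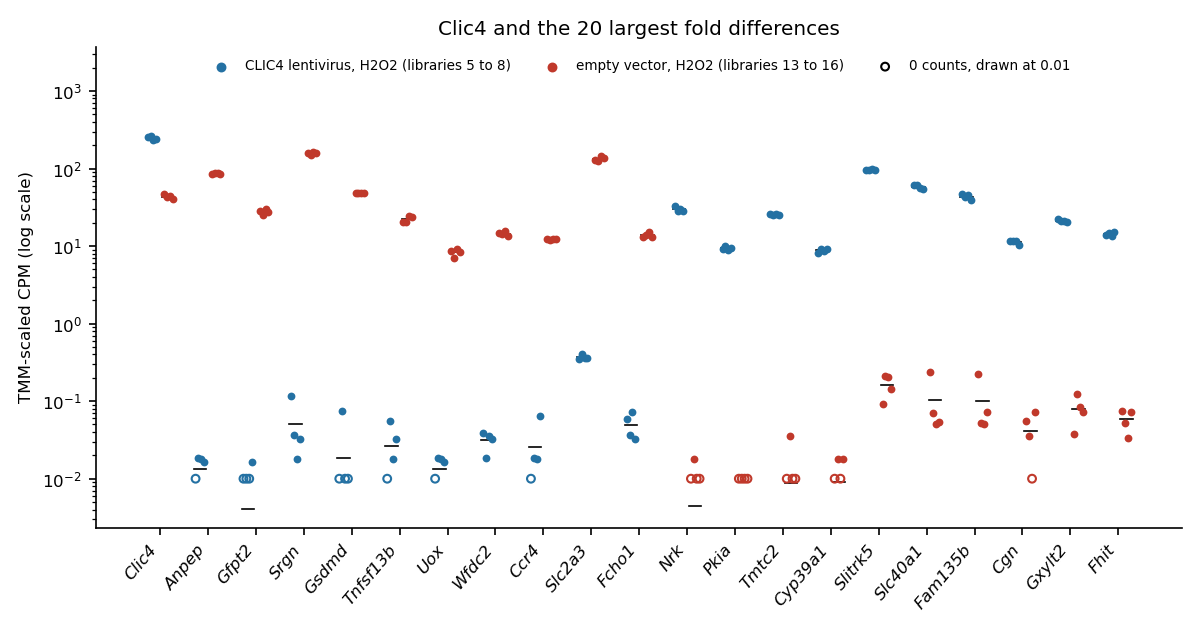
TMM-scaled CPM on a log axis of Clic4, the 10 genes with the highest and the 10 with the lowest log2 change, 1 point per library (blue, CLIC4 lentivirus libraries 5 to 8; red, empty vector libraries 13 to 16; open circles, 0 counts drawn at 0.01; black bars, group means). Clic4 is low but present with the empty vector at 43.4 CPM, whereas the other genes lie below 1 CPM in one group.

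Differences in CPM were largest among abundant transcripts. Spp1 (chromosome 5, 104435118 to 104441050) encodes the secreted phosphoprotein osteopontin and was at 2171, 2000, 2543 and 2349 CPM in libraries 13 to 16 and 313, 286, 326 and 341 CPM in libraries 5 to 8 (log2 change 2.84 ± 0.083, SE; edgeR adjusted p = 9.85e-10). Its receptor Cd44, which also binds hyaluronan, was higher at 634 ± 9.08 against 271 ± 5.68 CPM (log2 change 1.23). The integrin beta chains Itgb7 (489 ± 15.7 against 137 ± 4.93 CPM) and Itgb2 (470 ± 25 against 170 ± 6.03 CPM), known from leukocytes, were higher as well. So were Serinc3, a multi-pass membrane protein, at 921 ± 33.9 against 370 ± 7.31 CPM and Tagln2, an actin-binding protein, at 729 ± 7.94 against 363 ± 10.9 CPM.

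The lentivirus population held the higher level of Lpl, lipoprotein lipase, at 8.56, 8.95, 8.22 and 8.84 CPM in libraries 13 to 16 against 349, 345, 344 and 340 CPM in libraries 5 to 8 (log2 change -5.32 ± 0.036, SE; edgeR adjusted p = 1.01e-19). Ptgds, prostaglandin D synthase, was at 19.7 ± 3.84 against 304 ± 6 CPM and Itgb5, an integrin beta chain that pairs with Itgav, at 11.5 ± 2.24 against 279 ± 4.6 CPM. Marcks, a membrane-bound substrate of protein kinase C, was at 125 ± 3.15 against 333 ± 5.16 CPM. Gpnmb, a glycoprotein of melanosomes and lysosomes, was at 300 ± 12.5 against 615 ± 15.6 CPM. Lars2, the mitochondrial leucyl-tRNA synthetase, was at 367 ± 29 against 756 ± 29.3 CPM (log2 change -1.04), a call that was lost in a fit with all 16 libraries, untreated ones included.

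The moderate changes described here were picked among called genes without overlap, by the smallest adjusted p, so their separation is no result. Egln3, a prolyl hydroxylase that marks hypoxia-inducible factor for degradation, was at 207, 199, 203 and 191 CPM in libraries 13 to 16 and 104, 105, 104 and 106 CPM in libraries 5 to 8 (edgeR adjusted p = 1.42e-12). Acsl4, which activates polyunsaturated fatty acids and is known for its part in ferroptosis, was at 226 ± 7.03 against 119 ± 2.38 CPM. Mitf, a transcription factor of melanocytes and of lysosome genes, was at 64 ± 1.26 against 32.2 ± 0.708 CPM, with log2 changes of 0.93, 0.93 and 0.99 for these 3 genes. Cyb561, a transmembrane ascorbate-dependent electron carrier, Myo1c, an unconventional myosin, Antxr2, an anthrax toxin receptor, and Gars, glycyl-tRNA synthetase, were higher by log2 changes of 0.99, 0.85, 0.99 and 0.86.

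Of the moderate changes in the other direction, Glul, glutamine synthetase, was at 104, 107, 106 and 103 CPM in libraries 13 to 16 and 190, 204, 192 and 193 CPM in libraries 5 to 8 (log2 change -0.89 ± 0.031, SE; edgeR adjusted p = 2.15e-12). Marc2, a mitochondrial amidoxime-reducing enzyme, was at 68.4 ± 1.52 against 120 ± 1.84 CPM (-0.81). Igbp1, a regulator of protein phosphatase 2A, and Sh3tc2, an endosomal protein of Schwann cells, were lower by log2 changes of -0.81 and -0.95. The ribosomal protein genes Rpl39 (-0.84) and Rps4x (-0.89) were lower as well.

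**Figure D3:**
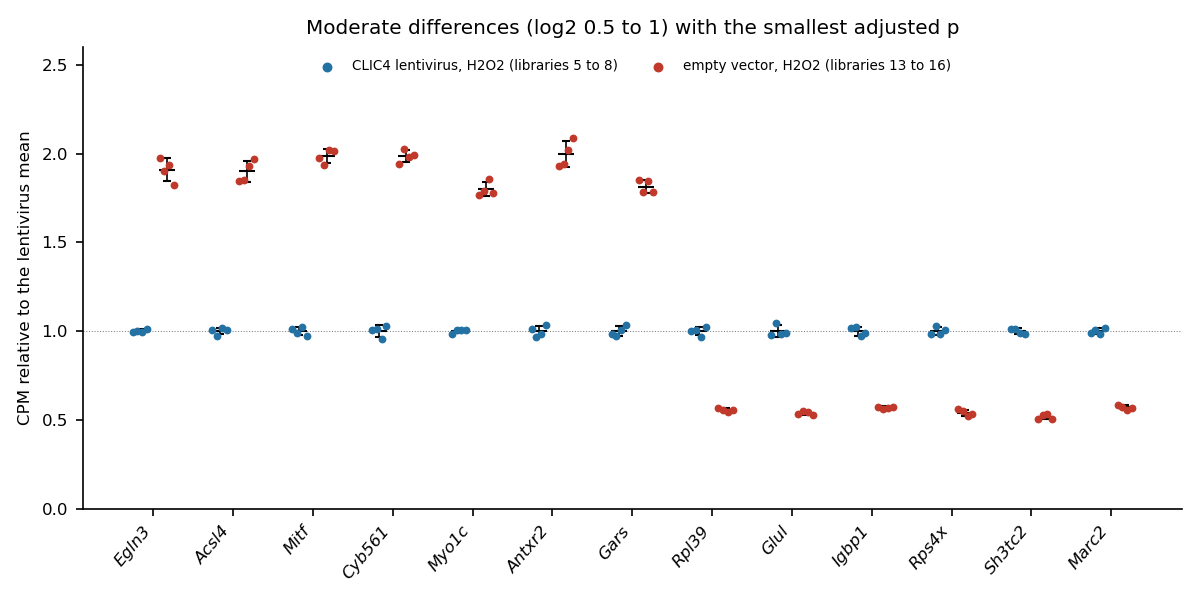
CPM of 13 moderately changed genes among those with the smallest adjusted p, 7 higher and 6 lower, divided by the mean of the lentivirus group, 1 point per library with group means and SD (blue, lentivirus; red, empty vector). Means of the empty vector lie above 1 for the 7 higher genes and below 1 for the 6 lower ones; groups without overlap and a change under 2-fold were conditions of the choice.

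Genes of protein folding in the endoplasmic reticulum were higher together. The unfolded protein response is set off by 3 sensors of the endoplasmic reticulum membrane, IRE1 (gene Ern1), PERK (Eif2ak3) and ATF6, and raises chaperones, disulfide isomerases and components of degradation. PERK also feeds the integrated stress response, in which phosphorylation of eIF2 favours translation of ATF4, a factor of amino acid synthesis, amino acid import and tRNA charging genes. These responses are known in part by short promoter elements: the ER stress response element (ERSE) is bound by NF-Y and ATF6, and the CCAAT/enhancer-ATF response element (CARE) by ATF4. Promoters that hold them are shown here because they belong to the groups of genes that moved together.

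The search read 300 bases per promoter, 250 before and 50 after the start of transcription (RefSeq, GRCm38.p6), on both strands. ERSE was searched as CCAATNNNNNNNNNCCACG and CARE as TGATGNAA, and the letters of the latter were chosen with the results known. ERSE occurred in 9 of the 25 genes of the folding list with a promoter in the table (36%), against 0.19% of the tested genes with a promoter and 0.119% of all 32851 promoters. Since such genes are textbook members of the response, in part for this element, the share is a description of the list. The 250 bases before the start of transcription follow for 4 of them, 5′ to 3′ on the strand of the gene, with the matches in capitals: Hspa5 (chr2:34771840-34772089, plus strand), Hsp90b1 (chr10:86705445-86705694, minus), Calr (chr8:84846932-84847181, minus) and Creld2 (chr15:88819396-88819645, plus).
Hspa5: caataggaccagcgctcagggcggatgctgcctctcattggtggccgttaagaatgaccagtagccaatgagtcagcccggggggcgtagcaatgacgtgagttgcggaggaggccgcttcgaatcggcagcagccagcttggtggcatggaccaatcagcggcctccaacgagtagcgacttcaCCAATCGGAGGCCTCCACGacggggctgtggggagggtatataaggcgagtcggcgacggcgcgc
Hsp90b1: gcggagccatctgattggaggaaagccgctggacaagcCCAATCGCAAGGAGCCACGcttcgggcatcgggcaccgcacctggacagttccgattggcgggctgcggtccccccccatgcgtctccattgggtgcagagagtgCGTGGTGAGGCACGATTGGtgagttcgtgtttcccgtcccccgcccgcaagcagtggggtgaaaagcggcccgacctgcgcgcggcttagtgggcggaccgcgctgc
Calr: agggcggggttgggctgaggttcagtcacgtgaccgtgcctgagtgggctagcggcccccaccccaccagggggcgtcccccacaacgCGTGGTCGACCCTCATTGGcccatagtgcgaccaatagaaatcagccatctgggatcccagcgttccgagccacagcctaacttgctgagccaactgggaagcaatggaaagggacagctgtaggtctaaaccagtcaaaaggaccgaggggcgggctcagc
Creld2: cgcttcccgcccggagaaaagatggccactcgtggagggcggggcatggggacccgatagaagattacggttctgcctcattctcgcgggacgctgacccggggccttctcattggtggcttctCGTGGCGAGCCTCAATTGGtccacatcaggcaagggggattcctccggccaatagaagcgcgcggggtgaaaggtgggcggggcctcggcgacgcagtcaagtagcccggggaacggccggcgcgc

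Of 30 tested genes of the folding list, 28 were called higher and none lower, against 37.1% higher over all genes tested, and 9 were at least 2-fold higher. Their median log2 change was 0.74 and their summed level was 11000 CPM with the empty vector against 6190 CPM. Hspa5, the master chaperone BiP, was at 1817, 1492, 1536 and 1397 CPM in libraries 13 to 16 and 654, 630, 690 and 687 CPM in libraries 5 to 8 (log2 change 1.23 ± 0.074, SE; edgeR adjusted p = 1.59e-07). Groups without overlap were a condition of the naming rule, here and for the list members it picked below, so separation is no result. Of the other promoters shown, Hsp90b1, the ER form of HSP90, had a log2 change of 0.78, the lectin chaperone Calr 0.71 and Creld2, a disulfide isomerase, 1.07. All 8 tested genes of the list that hold ERSE were called higher, but so were 28 of all 30, so this count adds nothing on the element.

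Oxidative folding was part of the group: Ero1l, the oxidase that produces H2O2 as it charges disulfide isomerases, was at 1150, 846, 1018 and 788 CPM against 383, 341, 372 and 378 CPM (log2 change 1.37 ± 0.125, SE). The isomerase Pdia4 was at 554 ± 22.2 against 253 ± 9.22 CPM (1.13). Among the sensors, Ern1 was at 64.8 ± 4.81 against 23.6 ± 0.954 CPM (1.46), Atf6 at 368 ± 10.1 against 157 ± 4.78 CPM (1.23) and Eif2ak3 at 64.4 ± 1.17 against 48.6 ± 1.59 CPM (0.41, a call lost with all 16 libraries). Sdf2l1, a cofactor of BiP, at 40 ± 2.45 against 7.96 ± 1.27 CPM (2.33) had the largest change of the list, and Edem1, which removes mannose from misfolded glycoproteins, was at 357 ± 7.46 against 132 ± 5.62 CPM (1.43). Herpud1 (52.4 ± 4.8 against 56.9 ± 0.988 CPM, edgeR adjusted p = 0.0565) and Edem3 (73.4 ± 2.87 against 72.3 ± 3.06 CPM, 0.629) were not called. Herpud1 was called lower in 5 of 17 alternatives.

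Of 30 tested genes linked to ATF4, 24 were higher and 4 lower, with 12 at least 2-fold higher, and the median log2 change was 0.83. Asns, asparagine synthetase, was at 127, 111, 121 and 113 CPM in libraries 13 to 16 and 26.5, 26.8, 28.1 and 29.1 CPM in libraries 5 to 8 (log2 change 2.10 ± 0.047, SE; edgeR adjusted p = 2.46e-14). Mthfd2, a mitochondrial enzyme of one-carbon metabolism, was at 59.8, 57.1, 61.5 and 57.1 CPM against 7.92, 5.66, 8.62 and 9.03 CPM (log2 change 2.91). Gdf15, a secreted stress hormone, was at 4.24 ± 1.21 against 0.00483 ± 0.00966 CPM with a single count in the lentivirus group, in library 5 (ratio 944.7, interval 169.1 to 37350; log2 change 9.30, and 10.91 without it). Chac1, which degrades glutathione, was at 7.68 ± 1.08 against 1.43 ± 0.168 CPM (2.42), Atf4 itself at 133 ± 8.24 against 81.3 ± 4.71 CPM (0.71) and Ddit3, which encodes CHOP, at 10.5 ± 1.7 against 4.97 ± 0.306 CPM (1.08). Members in the other direction were Vldlr, a lipoprotein receptor, at 82.1 ± 7.15 against 182 ± 6.18 CPM (-1.15), Slc7a3 (-0.96), Atf5 (-0.52) and Nupr1 (-0.13). With all 16 libraries in the fit Atf4, Slc7a3 and Nupr1 were not called, and the call of Nupr1 was lost in 10 of 17 alternatives.

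CARE occurred in 9 of 29 genes of the ATF4-linked list with a promoter (31%) and in 5 of 13 of the tRNA synthetase list (38.5%). It occurred in 2.62% of the tested genes with a promoter and in 3.97% of all promoters. Of the 9 tested ATF4-linked genes that hold it, 7 were called higher, the exceptions being Nupr1 and Vldlr. Over the whole list 24 of 30 were higher, so this count adds nothing on the element. The promoters of Asns (chr6:7693210-7693459, minus strand) and Chac1 (chr2:119350992-119351241, plus strand) are shown for the 2 genes of this list with the largest changes that hold it and have a mean of at least 1 CPM, with the matches in capitals.
Asns: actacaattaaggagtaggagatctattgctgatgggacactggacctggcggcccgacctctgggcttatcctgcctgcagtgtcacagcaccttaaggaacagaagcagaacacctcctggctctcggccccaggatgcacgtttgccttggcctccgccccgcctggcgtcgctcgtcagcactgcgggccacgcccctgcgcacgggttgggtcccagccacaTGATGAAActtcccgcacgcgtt
Chac1: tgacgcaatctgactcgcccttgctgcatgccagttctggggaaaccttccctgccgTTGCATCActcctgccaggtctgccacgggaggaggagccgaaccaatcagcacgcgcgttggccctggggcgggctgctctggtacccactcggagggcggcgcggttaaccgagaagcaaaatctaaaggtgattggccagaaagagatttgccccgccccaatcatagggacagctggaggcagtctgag

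Genes that charge and import amino acids were mostly higher as well. Of 19 tested cytosolic tRNA synthetases, 18 were higher and none lower (median log2 change 0.66). Cars, the cysteinyl enzyme, was at 87.2 ± 3.94 against 30.8 ± 1.64 CPM (1.50) and Aars, the alanyl enzyme, at 109 ± 6.35 against 48.5 ± 2.81 CPM (1.17). Of 19 amino acid transporters, 14 were higher and 3 lower (median 0.45). Slc7a11, the cystine importer that supplies glutathione synthesis, was at 9.16, 6.98, 7.68 and 5.78 CPM against 2.36, 1.56, 2.43 and 2.88 CPM (log2 change 1.68 ± 0.18, SE), and Slc7a1, the carrier of arginine, at 330 ± 13.7 against 157 ± 7.46 CPM (1.07). Of 20 heat shock proteins of the cytosol and mitochondria, by contrast, 10 were higher and 6 lower (median 0.10). The small chaperone Hspb1 was at 44.5 ± 2.84 against 15.5 ± 1.46 CPM (1.53) and Hsp90ab1 at 3700 ± 15.1 against 4781 ± 77.4 CPM (-0.37). Of 37 proteasome subunits, 31 were higher and 3 lower, by small amounts (median 0.22), and with all 16 libraries in the fit 13 were called higher. Psmb8, an inducible subunit of the immunoproteasome, was higher (57.7 ± 3.52 against 26.5 ± 1.2 CPM) while Psmb10, its partner, was lower (29.3 ± 1.38 against 53.7 ± 2.57 CPM).

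All measured genes of DNA replication and mitosis in the lists were higher. Of 32 replication genes, 32 were called higher, 27 of them at least 2-fold (median log2 change 1.38), and of 31 mitosis genes 31, 27 at least 2-fold (median 1.32). Rrm2, the inducible subunit of ribonucleotide reductase, was at 171, 203, 202 and 239 CPM in libraries 13 to 16 and 17.4, 17.8, 22.8 and 21 CPM in libraries 5 to 8 (log2 change 3.36 ± 0.136, SE; edgeR adjusted p = 2.19e-07). Cdc45, of the replicative helicase, was at 31 ± 1.84 against 6.77 ± 0.794 CPM (2.19), Cdc6, which loads it, at 15.2 ± 1.83 against 2.94 ± 0.607 CPM (2.36) and Mcm10 at 26.3 ± 3.07 against 5.66 ± 0.619 CPM (2.21). In the mitosis list, Top2a, the topoisomerase that disentangles chromosomes, was at 412, 475, 444 and 518 CPM against 139, 133, 149 and 148 CPM (1.70). The chromosomal passenger kinase Aurkb was at 59.8 ± 5.44 against 16.4 ± 1.33 CPM (1.87) and the checkpoint kinase Bub1 at 80.9 ± 6.8 against 25.4 ± 1.63 CPM (1.67). The summed level of the replication genes was 2040 against 760 CPM and that of the mitosis genes 3120 against 1210 CPM. A larger share of cells in cycle and more RNA per cycling cell cannot be told apart in bulk RNA.

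E2F factors are known to bind TTTCGCGC and TTTGGCGC, and 1 or both occurred in 9 of 26 replication genes with a promoter (34.6%). The share was 0.813% of all promoters and 1.81% of the tested genes with a promoter. The letters were chosen with the results known. All 9 genes were called higher, but so were all 32 tested genes of the list, so this count adds nothing on the motif. The promoters of Mcm5 (chr8:75109259-75109508, plus strand) and Mcm6 (chr1:128359706-128359955, minus strand), subunits of the replicative helicase with log2 changes of 1.95 and 1.06, are shown because each holds both forms, which overlap on opposite strands, with the matches in capitals.
Mcm5: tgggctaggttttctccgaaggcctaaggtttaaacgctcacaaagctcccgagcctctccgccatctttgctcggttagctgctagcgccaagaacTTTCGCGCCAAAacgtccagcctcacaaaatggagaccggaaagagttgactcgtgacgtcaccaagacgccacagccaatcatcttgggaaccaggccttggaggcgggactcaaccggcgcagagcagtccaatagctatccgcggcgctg
Mcm6: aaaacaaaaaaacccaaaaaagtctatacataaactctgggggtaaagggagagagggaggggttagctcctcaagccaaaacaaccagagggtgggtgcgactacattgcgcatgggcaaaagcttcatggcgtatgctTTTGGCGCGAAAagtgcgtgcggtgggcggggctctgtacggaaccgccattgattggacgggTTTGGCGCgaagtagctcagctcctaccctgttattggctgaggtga

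Around the entry into the cell cycle, 10 of 14 tested G1 cyclins and CDK inhibitors were higher and 3 lower. Ccne1, cyclin E1, was at 18.1, 18.7, 19.3 and 21.8 CPM against 3.02, 2.98, 3.6 and 3.5 CPM (log2 change 2.57 ± 0.081, SE) and Ccne2 at 25.8 ± 3.83 against 6.47 ± 0.778 CPM (1.99). The inhibitors Cdkn2d (42.7 ± 3.13 against 12.6 ± 0.589 CPM, 1.75) and Cdkn1a, the p53 target p21 (189 ± 10.9 against 98.8 ± 3.49 CPM, 0.94), were higher too. Of 23 p53 targets, 11 were higher and 7 lower. Fas, a death receptor, at 3.13 ± 0.226 against 11.4 ± 0.104 CPM (-1.87) and Sesn1 at 18.9 ± 1.34 against 51 ± 0.476 CPM (-1.43) were lower. Sesn2, also a target of ATF4, was higher at 31 ± 3.91 against 13.4 ± 0.833 CPM (1.21). Of 14 tested replication-dependent histone genes 1 was higher and 8 lower. Their main transcripts lack a poly(A) tail, and whether the libraries were poly(A)-selected is not given in the sources used here.

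Genes of cytosolic ribosomal proteins were lower together. Of 78 tested, 77 were lower and none higher, 70 of them by a moderate change, against 38% lower over all genes tested, and the median log2 change was -0.72. Rps4x, of the small subunit, was at 1767, 1729, 1646 and 1677 CPM in libraries 13 to 16 and 3101, 3244, 3106 and 3175 CPM in libraries 5 to 8 (log2 change -0.89 ± 0.031, SE). Rps27, of the same subunit, was at 356, 341, 372 and 369 CPM against 735, 743, 699 and 736 CPM (-1.02). The summed level was 66900 CPM against 110000 CPM. These genes are short, with a median length of 0.51 kb. When all other genes were split into 4 equal bins by length, the bin of the shortest genes (median 0.74 kb) had a median log2 change of -0.07, against 0.04, 0.04 and -0.01 in the bins of longer genes. Their processed pseudogenes can share reads with them, so levels of single members are uncertain.

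The nuclear genes of the respiratory chain moved the same way by smaller steps. Of 36 tested subunits of complex I, 28 were lower and none higher (median log2 change -0.18), and of 15 of ATP synthase 12 lower and none higher (median -0.22). Complex IV had 9 lower and 1 higher of 13. With all 16 libraries in the fit the lower calls came to 12, 7 and 5. Ndufa6, an accessory subunit of complex I, was at 48.8, 51.6, 49.3 and 44.9 CPM in libraries 13 to 16 and 83.8, 80.4, 77.1 and 81.5 CPM in libraries 5 to 8 (log2 change -0.73 ± 0.042, SE; edgeR adjusted p = 6.57e-10). Cox7a2l, which joins complexes III and IV into supercomplexes, was at 114 ± 3.33 against 186 ± 3.27 CPM (-0.70) and Cox4i1, a core regulatory subunit of complex IV, at 318 ± 12.6 against 462 ± 10.1 CPM (-0.54). Uqcrh, the hinge protein of complex III, was at 202 ± 18.9 against 319 ± 11.7 CPM (-0.66) and Atp5g2, of the rotating ring of ATP synthase, at 220 ± 5.98 against 289 ± 11.8 CPM (-0.39). Groups without overlap were a condition of the naming rule, and every change named here is under 2-fold. Many of these subunits are short genes, like the ribosomal protein genes, and the part of length in their medians was not tested.

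Of the 13 mRNAs of the mitochondrial genome, 1 was called: mt-Nd3, a subunit of complex I, was at 43.7, 40.5, 46.5 and 53.3 CPM in libraries 13 to 16 and 85.1, 112, 90.3 and 79.4 CPM in libraries 5 to 8 (edgeR adjusted p = 0.000262). Library 5 stood apart here, since its summed mitochondrial mRNA was 11800 CPM against 22000 to 26600 CPM in libraries 6 to 8 and 22700 to 29200 CPM in libraries 13 to 16. Without it, mt-Co1 was higher (log2 change 0.37, edgeR adjusted p = 0.0157) and mt-Atp6 (-0.42, 0.0238), mt-Co3 (-0.30, 0.0067) and mt-Nd3 (-1.03, 5.56e-04) were lower. In all, mt-Co1 was called higher in 4 of 17 alternatives, and the others of these kept library 5. The ribosomal RNAs mt-Rnr1 and mt-Rnr2 were not called with all 8 libraries (log2 changes 0.53 and 0.46, edgeR adjusted p = 0.0682 and 0.0537), and were called higher without library 5 (0.35 and 0.32, edgeR adjusted p = 4.67e-04 and 0.00259). DESeq2, and limma on both filtered FPKM scales, called both with all 8 libraries as well. Of 78 mitochondrial ribosomal proteins, 12 were higher and 31 lower. Those counts moved with single libraries, the lower to 19 without library 8 and 20 without library 13, and to 2 higher and 6 lower with all 16 libraries in the fit.

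Among regulators of mitochondrial shape and turnover, Pink1, the kinase that marks damaged mitochondria, was at 45.2, 41.7, 43.1 and 37.2 CPM against 84.9, 87.5, 84.2 and 83.5 CPM (log2 change -1.02 ± 0.049, SE). Fis1, an adaptor of fission, was at 44.8 ± 1.3 against 60.3 ± 1.71 CPM (-0.43), and of 19 genes of this list 5 were higher and 10 lower. The citric acid cycle list had 5 higher and 12 lower of 22. Its largest change was that of Pcx, pyruvate carboxylase, which refills the cycle with oxaloacetate, at 21.8, 20.5, 23.7 and 21.2 CPM against 5.24, 5.76, 4.68 and 5.47 CPM (2.04 ± 0.069, SE).

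Enzymes that remove peroxide, listed together with superoxide dismutases, had no common direction under H2O2. Of 23 tested, 8 were higher and 10 lower, with a median log2 change of -0.03 and summed levels of 3090 and 3030 CPM. Higher were Srxn1, sulfiredoxin, which repairs overoxidised peroxiredoxins (49.8 ± 1.54 against 33.4 ± 0.759 CPM, 0.58), Txnrd1, cytosolic thioredoxin reductase (129 ± 2.84 against 87.1 ± 2.21 CPM, 0.56), and Prdx1 (594 ± 52.8 against 450 ± 11.4 CPM, 0.40). Lower were Cat, catalase (79.1 ± 1.82 against 100 ± 0.711 CPM, -0.34), Gpx1, a glutathione peroxidase (131 ± 5.54 against 169 ± 3.14 CPM, -0.38), the mitochondrial superoxide dismutase Sod2 (55.3 ± 2.91 against 74.4 ± 1.6 CPM, -0.43) and the secreted dismutase Sod3. Sod3 stood at 1.13, 0.937, 0.96 and 0.797 CPM against 4.74, 4.98, 4.39 and 4.8 CPM (-2.30). It was the single member of the list that differed at least 2-fold, and as a dismutase it acts on superoxide, not on peroxide. With all 16 libraries in the fit Prdx1 and Gpx1 were not called.

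A list of glutathione, NADPH supply and other oxidant-response genes leaned higher by calls. Of 26 tested genes, 15 were higher and 6 lower (median log2 change 0.27), with summed levels of 6620 and 6280 CPM. Nqo1 encodes a quinone reductase and is a standard target of the oxidant-sensing factor NRF2. It was at 5.98, 5.32, 6.32 and 6.81 CPM in libraries 13 to 16 and 0.986, 0.574, 0.81 and 1.18 CPM in libraries 5 to 8 (log2 change 2.77 ± 0.156, SE; edgeR adjusted p = 7.7e-10). Gsr, glutathione reductase, was at 116 ± 3.54 against 56.5 ± 2.05 CPM (1.04). Hmox1, heme oxygenase 1, was at 37.7 ± 5.73 against 23.4 ± 0.774 CPM (0.69) and G6pdx, the entry to the pentose phosphate pathway, at 148 ± 3.34 against 104 ± 2.51 CPM (0.51). The subunits of glutamate-cysteine ligase, which are NRF2 targets too, were lower, Gclm at 28.9 ± 1.53 against 38.6 ± 0.906 CPM (-0.42) and Gclc at 24.7 ± 1.62 against 27.7 ± 0.41 CPM (-0.16, a call lost with all 16 libraries). Nfe2l2, which encodes NRF2, at 198 ± 5.06 against 200 ± 3.05 CPM, and its inhibitor Keap1 at 65.5 ± 2.23 against 65.4 ± 2.16 CPM were not called (edgeR adjusted p = 0.685 and 0.977).

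Single genes of iron export and uptake differed, while the iron handling list had no common direction. The exporter Slc40a1 is described above. Tfrc, the transferrin receptor that takes iron up, was lower at 37.5, 38.4, 36.5 and 39.5 CPM in libraries 13 to 16 against 215, 202, 202 and 190 CPM in libraries 5 to 8 (log2 change -2.41 ± 0.04, SE; edgeR adjusted p = 7.83e-16). Higher were Steap1, of a family of metalloreductases, at 16 ± 0.628 against 3.3 ± 0.584 CPM (2.27) and Slc25a37, mitoferrin, which carries iron into mitochondria, at 162 ± 11.2 against 75.7 ± 5.68 CPM (1.09). Of the ferritin chains, Ftl1 (log2 change 0.03, edgeR adjusted p = 0.616) was not called, and the call of Fth1 (-0.06, 0.0482) was lost in 15 of 17 alternatives. Of 18 genes of the list 8 were higher and 4 lower, against 37.1% and 38% over all genes tested, and 2 were lower without library 5.

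**Figure D4:**
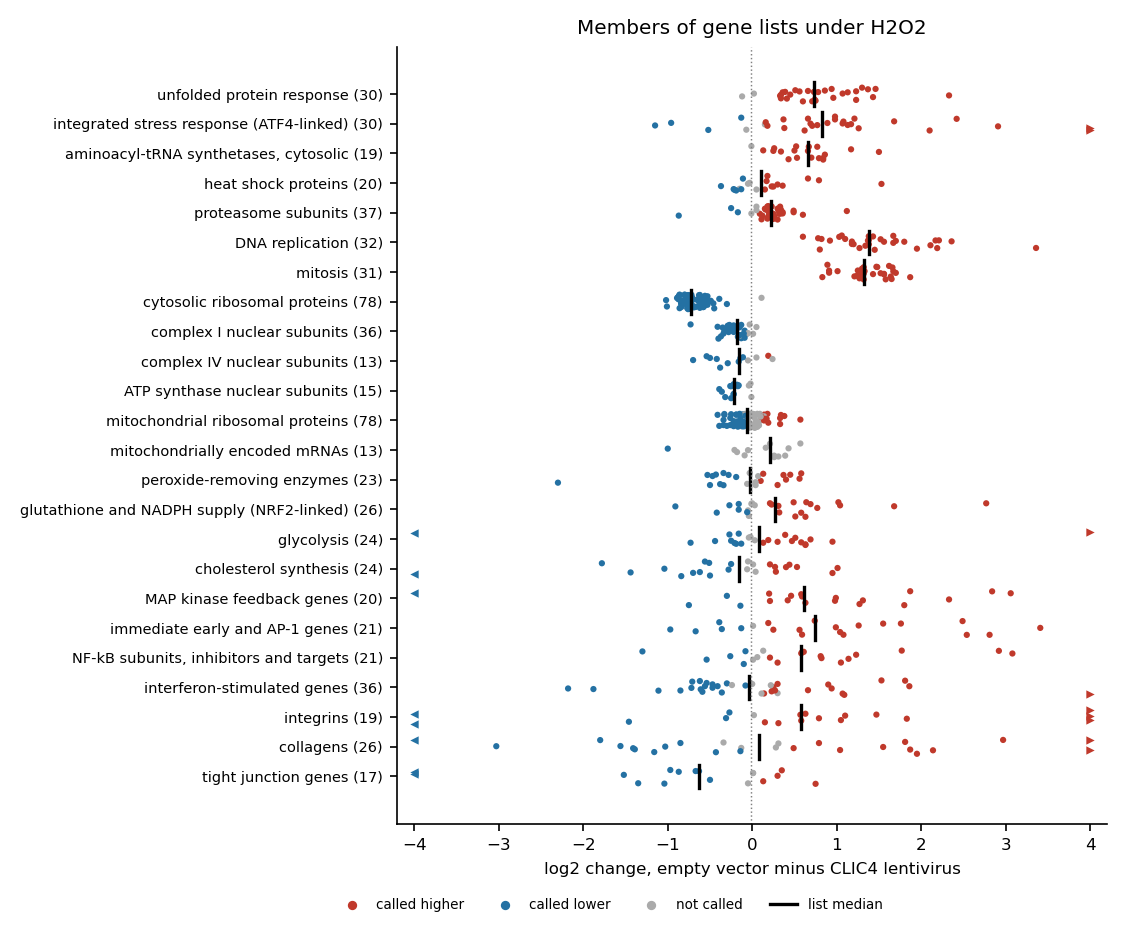
Log2 change of every tested member of 24 gene lists (number tested in brackets), with red for members called higher with the empty vector, blue for called lower and grey for not called; black ticks are list medians, the dotted line the median of all genes, and arrowheads mark members beyond 4 on the axis. Folding, ATF4-linked, tRNA synthetase, replication and mitosis genes lie to the right, ribosomal protein, complex I and ATP synthase genes to the left, and integrins, collagens and interferon-stimulated genes on both sides.

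In carbohydrate metabolism, glycolysis as a list did not lean (12 higher, 9 lower of 24; median log2 change 0.08). Slc2a1, the basal glucose transporter GLUT1, was at 534, 482, 557 and 468 CPM against 263, 270, 255 and 269 CPM (0.95 ± 0.05, SE). Ldhb, the heart form of lactate dehydrogenase, was lower at 0.12 ± 0.0382 against 3.69 ± 0.291 CPM (-4.91), as was Aldoc, aldolase C, at 143 ± 14.9 against 236 ± 8.51 CPM (-0.73). Hexosamine synthesis, which makes the sugar donors of glycosylation, had 7 of 11 genes higher and 1 lower, with Pgm3 at 34.8 ± 2.75 against 15.9 ± 0.797 CPM (1.13) and Gnpnat1 at 43.5 ± 3.48 against 20 ± 0.493 CPM (1.12) beside Gfpt2. Of 21 purine genes 16 were higher and 5 lower, among them Nt5e, the ectonucleotidase CD73, at 8.52 ± 0.563 against 3.78 ± 0.379 CPM (1.17).

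Lipid genes were mixed. In cholesterol synthesis 8 of 24 genes were higher and 12 lower. Mvd, mevalonate diphosphate decarboxylase, was at 9.36, 9.19, 9.45 and 7.46 CPM against 29.5, 31.4, 29.2 and 31.8 CPM (-1.78 ± 0.066, SE). Nsdhl and Tm7sf2, later enzymes of the pathway, were lower by log2 changes of -1.04 and -1.44. Elovl7, an elongase of saturated fatty acids, was at 49.8, 52.1, 51 and 53.5 CPM in libraries 13 to 16 and 1.51, 1.65, 1.58 and 1.42 CPM in libraries 5 to 8 (5.07 ± 0.057, SE). Acacb, the acetyl-CoA carboxylase that restrains fatty acid entry into mitochondria, was lower at 4.58 ± 0.536 against 20.6 ± 1.18 CPM (-2.17), and Acsl1, an acyl-CoA synthetase, higher at 38.1 ± 2.98 against 14.8 ± 0.607 CPM (1.36).

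Of 12 tested ErbB receptors, ligands and regulators, 7 were higher and 4 lower (median log2 change 0.26). Areg, amphiregulin, a ligand of the EGF receptor, was at 23, 19.4, 28.4 and 25 CPM in libraries 13 to 16 and 1.04, 0.833, 1.13 and 1.27 CPM in libraries 5 to 8 (log2 change 4.47 ± 0.151, SE; edgeR adjusted p = 2.15e-10). The further ligands Btc (7.91 ± 0.714 against 2.08 ± 0.413 CPM, 1.92) and Tgfa (81.3 ± 5.54 against 31.4 ± 0.537 CPM, 1.37) were higher. The receptor Erbb3 (4.6 ± 0.296 against 10.4 ± 0.471 CPM, -1.17) was lower, as was the ligand Nrg2 (0.153 ± 0.0569 against 1.06 ± 0.192 CPM, -2.78), the largest decrease of the list. Of 20 genes that are transcribed downstream of ERK and feed back on it, 16 were higher and 4 lower (median 0.61). Etv4 and Etv5, transcription factors of this response, were at 109 ± 5.45 against 13 ± 2.58 and 123 ± 3.73 against 24.4 ± 3.55 CPM (3.06 and 2.33). The phosphatase Dusp6 was at 88.2 ± 3.1 against 24.2 ± 2.13 CPM (1.87) and the inhibitor Spry4 at 17.2 ± 0.927 against 2.39 ± 0.499 CPM (2.84). Spry1, of the same family, went the other way, at 0.149, 0.106, 0.0674 and 0.0181 CPM against 3.67, 3.85, 4.14 and 4.33 CPM (-5.53).

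Immediate early genes had 15 members higher and 5 lower of 21 (median log2 change 0.74), and 4 higher with all 16 libraries in the fit. Fosl1, an AP-1 subunit, was at 36.9, 42.3, 48.5 and 43.3 CPM against 3.85, 3.33, 4.16 and 4.69 CPM (3.41 ± 0.106, SE). Egr2, Nr4a1 and Fosb were higher at lower levels (2.54 ± 0.174 against 0.363 ± 0.0699, 4.24 ± 0.317 against 0.752 ± 0.174 and 6.72 ± 0.459 against 1.98 ± 0.143 CPM). Jund, another AP-1 subunit, was lower at 23.4 ± 4.95 against 46 ± 2.05 CPM (-0.97), a call lost with all 16 libraries. Of 21 NF-kB subunits, inhibitors and targets 13 were higher and 5 lower (median 0.58), and 5 higher with all 16 libraries. Vcam1, an adhesion molecule for leukocytes, was at 58.1, 62.5, 59.5 and 64.1 CPM against 6.98, 6.85, 7.89 and 7.17 CPM (3.08 ± 0.052, SE), and Ccl2, a chemokine for monocytes, at 31.9 ± 6.03 against 4.23 ± 1.03 CPM (2.92).

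The TNF superfamily held 15 higher and 8 lower members of 26. Cd40 was at 7.21 ± 0.86 against 0.0123 ± 0.0245 CPM with 3 counts in the lentivirus group, all in library 8 (ratio 534.8, interval 182.7 to 2596). Its log2 change was 8.84, and 11.64 without that library. Tnfrsf9, the receptor 4-1BB, was at 36.8 ± 3.76 against 7.35 ± 0.271 CPM (2.32), and Tnfrsf21, death receptor 6, at 0.0802 ± 0.0317 against 3.13 ± 0.27 CPM (-5.25). Interferon-stimulated genes were split, with 14 higher and 17 lower of 36 (median -0.04). Irf7, which amplifies type I interferon, was at 38.6, 39.8, 57.7 and 45.5 CPM against 11.4, 11, 12 and 15.3 CPM (1.86 ± 0.17, SE). Gbp5, a guanylate-binding protein, was at 2.53 ± 0.245 against 0.106 ± 0.0529 CPM (4.53), while Ifi44 was lower at 4.81 ± 0.542 against 21.8 ± 1.48 CPM (-2.18). Genes of MHC class I presentation were split too (10 higher and 9 lower of 22).

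Among developmental ligands, Wnt10b was at 4.53, 4.69, 4.41 and 4.17 CPM against 0.0193, 0.074, 0.054 and 0.0653 CPM (6.31), Wnt6 at 3.12 ± 0.473 against 0.225 ± 0.0441 CPM (3.78). Wnt10a was at 2.21 ± 0.266 against 0 ± 0 CPM with 0 counts in the lentivirus group, at least 164-fold higher against a floor of 3 counts over that group. The receptor Fzd8 was lower at 2.61 ± 0.329 against 14.3 ± 0.504 CPM (-2.46), and the Wnt list had 7 higher and 10 lower members of 22. In the TGF-beta and BMP list 8 were higher and 17 lower of 30. Ltbp1, which anchors latent TGF-beta in the matrix, was at 117, 124, 129 and 122 CPM against 14.9, 14, 13.7 and 13.2 CPM (3.14 ± 0.044, SE), and Inhbb, an activin chain, at 0.356 ± 0.126 against 7.1 ± 0.542 CPM (-4.31). The guidance factor Ntn1, netrin 1, was at 62.2, 62.9, 62.1 and 55.3 CPM against 0.406, 0.537, 0.846 and 0.8 CPM (6.53 ± 0.109, SE). The semaphorin Sema6a at 0.573 ± 0.161 against 14.9 ± 1.19 CPM (-4.69) and Plxnb1, a semaphorin receptor, at 0.0449 ± 0.0443 against 5.46 ± 0.473 CPM (-6.87; -7.71 without library 14) were lower. The axon guidance list as a whole had 19 higher and 17 lower of 43.

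Adhesion and matrix genes differed in both directions. Of 19 integrin genes and binding partners 13 were higher and 5 lower, 7 and 3 of them at least 2-fold. The alpha chains that pair with Itgb2 on leukocytes, Itgam at 4.75 ± 0.481 against 0.0177 ± 0.0147 CPM (7.88) and Itgax at 3.46 ± 0.418 against 0.0313 ± 0.0227 CPM (6.69), were higher. Itga8, which pairs with Itgb1, was lower at 0.0273 ± 0.0236 against 5.53 ± 0.466 CPM (-7.58). Collagens were balanced (11 higher, 11 lower of 26), with Col5a3 at 169 ± 16.8 against 38.2 ± 3.76 CPM (2.14) and Col23a1 at 1.36 ± 0.0913 against 11.1 ± 1.11 CPM (-3.03). Fn1, fibronectin, was at 338, 290, 294 and 219 CPM in libraries 13 to 16 and 59.4, 40.4, 51.6 and 43 CPM in libraries 5 to 8 (2.55 ± 0.185, SE). Mmp3, a protease that cleaves it, was at 139, 153, 178 and 192 CPM against 14.4, 13.5, 19.2 and 19 CPM (3.32 ± 0.165, SE). Adam8 was higher at 18.5 ± 2.48 against 1.78 ± 0.0426 CPM (3.38), and Mmp15, a membrane-bound protease (1.44 ± 0.675 against 20.5 ± 1.21 CPM, -3.84), and Reck, an inhibitor of such proteases (3.84 ± 0.263 against 17.4 ± 0.86 CPM, -2.18), lower.

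Cell junction genes were called in both directions. Of 17 tight junction genes 4 were higher and 10 lower (median log2 change -0.63), with Ocln, occludin, at 22.3 ± 0.633 against 40.7 ± 1.39 CPM (-0.87) beside Cgn. That median was -0.00 with limma on both filtered FPKM scales, -0.11 without a filter on FPKM and -0.30 with the filter of 10 CPM. Keratin, desmosome and envelope genes were mostly higher (14 of 20, 5 lower). Krt18 was at 189, 200, 212 and 193 CPM against 94.9, 97.4, 95.7 and 95.3 CPM (1.05 ± 0.036, SE), Krt8 at 610 ± 30.5 against 427 ± 9.46 CPM (0.51) and Evpl, envoplakin, at 20 ± 1.59 against 2.63 ± 0.161 CPM (2.93). Dsp, desmoplakin, which ties keratins to desmosomes, was lower at 50.4, 51.8, 50.9 and 42.9 CPM against 260, 230, 244 and 227 CPM (-2.29 ± 0.063, SE). Of lineage factors, Trp63, the basal epithelial factor p63, was lower at 0.17 ± 0.0552 against 4.77 ± 0.19 CPM (-4.80), Esr1, estrogen receptor alpha, at 0.266 ± 0.0891 against 2.63 ± 0.205 CPM (-3.29). Elf3, an epithelial ETS factor, was higher at 6.01 ± 1.11 against 0.881 ± 0.223 CPM (2.76). Twist1, a mesenchymal factor, was higher at 18.7 ± 1.15 against 6.67 ± 0.514 CPM (1.49), as was Vim, vimentin, at 3869 ± 170 against 2667 ± 74.9 CPM (0.54).

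Further cell death genes differed beside Gsdmd. Casp4, which cleaves gasdermin D, was at 5.5 ± 0.738 against 1.48 ± 0.0228 CPM (1.89) and Mlkl, the effector of necroptosis, at 77.7, 80.2, 87.9 and 88.3 CPM against 35.1, 32.7, 35.4 and 34.6 CPM (1.28 ± 0.046, SE). In the list of pyroptosis, necroptosis and ferroptosis regulators 12 were higher and 4 lower of 17. In the BCL2 family 4 were higher and 6 lower of 12. Bmf, a BH3-only trigger of apoptosis that responds to detachment, was at 1, 1.03, 0.826 and 0.761 CPM in libraries 13 to 16 and 35.9, 39.6, 33.3 and 34.1 CPM in libraries 5 to 8 (-5.30 ± 0.091, SE; edgeR adjusted p = 9.88e-16).

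Markers of other cell types were measured beside these groups. The pan-leukocyte marker Ptprc had 0 counts with the empty vector and 5 with the lentivirus, and the macrophage markers Adgre1 (0 and 1 counts), Csf1r (6 and 1) and Lyz2 (16 and 0) were near 0. Cd68, a lysosomal protein of many cell types, was at 245 ± 16.9 against 89.8 ± 5.17 CPM (1.45) and Cd14 at 11.7 ± 0.333 against 6.81 ± 0.427 CPM (0.78). The summed macrophage list was 257 CPM against 96.7 CPM, with 3 of 8 markers tested and higher. Pax5, a B cell factor, was at 19.6 ± 0.478 against 3.89 ± 0.346 CPM (2.34) and Cd79a, of the B cell receptor, at 0.0616 ± 0.0279 against 0.481 ± 0.144 CPM (-2.90; not called with all 16 libraries in the fit), so that 1 of 2 tested B cell markers was higher and 1 lower. Cd79b had 0 counts in all 8 libraries. The summed endothelial list was 7.16 CPM against 89.8 CPM, with 1 of 4 tested markers higher and 2 lower. Cdh5, VE-cadherin, made up most of the lentivirus sum, at 3.1, 3.7, 3.59 and 4.2 CPM against 83.6, 84.1, 85.6 and 87.7 CPM (-4.55). Vwf, von Willebrand factor, was lower as well, at 1.27 ± 0.205 against 3.95 ± 0.494 CPM (-1.64), whereas Tie1, a receptor kinase, was higher at 1.73 ± 0.154 against 0.0566 ± 0.0414 CPM (4.84; 5.46 without library 8). Tek, the related receptor of angiopoietins, had 0 and 1 counts. Fibroblast markers summed to 19.6 and 17 CPM, and of 4 tested 2 were higher and 2 lower, all at least 2-fold. Their log2 changes ran from -5.14 to 1.95, with Pdgfra at 1.67 and Col1a1 at -1.56. No hemoglobin read was counted. Of 6 pan-immune markers 1 was tested and was lower (log2 change -1.08), and the list summed to 0.966 against 2.1 CPM. The 1 tested T cell marker was lower as well (-0.47). The defining leukocyte marker Ptprc was therefore at or near 0 in both groups while single genes known from leukocytes or endothelium differed in both directions.

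The vector difference under H2O2 was finally set against that of untreated cells, in a fit of 15 libraries that left out untreated empty-vector library 11, which stands apart from its group. The untreated groups hold libraries 1 to 4 (lentivirus) and 9, 10 and 12 (empty vector), lysed at the same time without H2O2. Of 14602 genes tested, 28 (0.192%) passed for a difference between the 2 vector differences, 10 with a more positive and 18 with a more negative change under H2O2. edgeR called none with library 11 in the fit (859 genes at an unadjusted p under 0.05). In the 15 libraries 2391 genes (16.4%) had an unadjusted p under 0.05, and DESeq2 called 82 positive and 475 negative. The absolute differences of edgeR's 28 genes ranged from 0.20 to 2.47 on the log2 scale. The number that edgeR called ran from 0 to 39 positive and from 0 to 131 negative when 1 library was left out. None of the 58 genes that the naming rule picked as largest in fold, largest in CPM, moderate or of the CLIC family that had a value passed, their smallest adjusted p being 0.11. For the 36 genes it picked as largest in CPM or as moderate, the sign was the same in untreated cells for all 36, and the difference was at most 0.42 on the log2 scale.

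For Clic4 the untreated log2 change was -2.43 and the difference -0.09 (SE 0.067, edgeR adjusted p = 0.554). Hspa5 had 1.28 untreated and a difference of -0.05 (SE 0.14), Rrm2 3.11 and 0.26 (SE 0.17), Slc40a1 -9.33 and 0.20 (SE 0.55), and Nqo1 2.49 and 0.29 (SE 0.22), none of which passed. Among all genes named by the rule, Timm21, of the mitochondrial import channel, was called, with an untreated log2 change of -0.66 and -0.35 under H2O2 (difference 0.31, edgeR adjusted p = 0.0401). Its vector difference under H2O2 was not called with all 16 libraries in the fit. Also called were Tead1, a transcription factor of the Hippo pathway (0.21 untreated, difference -0.34, edgeR adjusted p = 0.0238), and Srcap, a chromatin remodeller (0.17, -0.49, 0.0238), which were picked from the 28 after their values were seen. A p that misses the threshold does not show that the vector difference was equal with and without H2O2.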

How the data were processed

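Per the labels' protocols, RNA of 6DT1 cells was purified with Qiagen RNeasy on a QIAcube and sequenced as standard Illumina libraries. The authors deposited a table of whole-number counts for 25745 genes and a table of FPKM values for 25372 genes, which they scaled to gene length and depth. The submitters' processing notes name cutadapt, STAR, RSEM and mm10; tool versions, the annotation and strandedness are not stated there. Since RSEM estimates counts, the authors may have rounded the deposited ones. Without strand, antisense and overlapping genes cannot be told apart, and near-identical copies may share reads.

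Groups came from the sample titles, with 4 libraries each. The test was edgeR 4.0.16's quasi-likelihood F test (R 4.3.3, robust, TMM scaling, filterByExpr) on the counts of the 8 treated libraries alone, which left 13963 of 23482 genes with a count. A gene was called at a Benjamini-Hochberg adjusted p under 0.05 over all genes tested, and its standard error is the log2 change over the root of its F. The difference from untreated cells was a contrast in a fit of 15 libraries, without library 11. Ratios with 1 to 3 counts in a group carry an exact 95% counting interval, and genes at 0 counts a floor of 3 counts over the group. List medians were also computed with such genes at that floor, which moved none of 74. Gene positions are those of mm10, and promoter sequences are from RefSeq (GRCm38.p6).

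The comparison, the 76 gene lists and the motifs were chosen with earlier results of these data known, and lists were not tested. The rule for named genes took, among called genes with regular symbols and groups without overlap, the 10 highest and 10 lowest log2 changes at an average log2 CPM of at least 2. It added the 10 largest CPM differences each way at 2-fold, and the 8 smallest adjusted p-values each way for moderate changes at 20 CPM. It also took the CLIC family and, for each list, up to 4 called members of at least 1 CPM with the largest changes. Members named beyond these, such as Atf4, Atf6, Cat, Hmox1, Keap1 and the cell type markers near 0, were chosen after their values were seen. A few genes that the rule picked are not reported here. Alternatives were DESeq2 1.42.0, RLE size factors, a filter of 10 CPM in 4 libraries or none, fits on 15 and 16 libraries, glmTreat, and leaving out each library. On the FPKM table, limma 3.58.1 was run on log2(FPKM + 1) and on log2(FPKM + 0.1), keeping genes that reached 0.5 FPKM in 4 libraries, and once more on the former with every gene. A pseudocount understates the change of low genes. Figures were drawn with matplotlib 3.10.9.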

Additional observations from a re-analysis of the deposited data

Results flagged for a closer look

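In groups of 4, a library was singled out where its gap to the nearest other library as a share of the range of the group passed Dixon's 95% critical value for 4 samples. This held in 44 of 482 groups examined (9.13%), over the 238 genes named in the text and 3 totals per library, and chance singles out about 1 in 20. Of these, 15 rest on 4 counts or fewer in the whole group. In 13 of them the other libraries were at 0, and for Anpep and Uox library 5 was at 0 CPM against 0.0163 to 0.0185 CPM in the other 3.

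In the lentivirus group, library 5 was lowest for Slc25a37 (67.2 CPM against 77.8 to 79.5 in the others), Marcks (325 against 335 to 336) and Myo1c (87.8 against 89.8 to 89.9), and held the single count of Gdf15 (0.0193 CPM). Library 6 was lowest for Sdf2l1 (6.07 against 8.44 to 8.84), Cdkn2d (11.8 against 12.9 to 13), Eif2ak3 (46.2 against 49.2 to 49.4) and Ccn2 (6.52 against 6.88 to 6.9) and highest for Plxnb1 (6.16 against 5.2 to 5.26). It held all counts of Gsdmd (0.074 CPM), Clic3 (0.037) and Epcam (0.0185). Library 7 was highest for Ccl2 (5.76 against 3.52 to 3.84) and Casp4 (1.51 against 1.46 to 1.47) and held the count of Csf1r (0.018). Library 8 was highest for Col5a3 (43.8 against 35.8 to 37), Nsdhl (50.7 against 45.8 to 46.3) and Cd14 (7.45 against 6.57 to 6.63) and lowest for Cgn (10.4 against 11.5 to 11.7). The counts of Cd40 (0.049 CPM), Gfpt2, Adgre1 and Tek (0.0163 each) lay in it alone.

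In the empty-vector group, library 13 was highest for Slc40a1 (0.241 CPM against 0.0506 to 0.0707), Fam135b (0.223 against 0.0506 to 0.0725) and Pdia4 (588 against 543 to 544). Library 14 was lowest for mt-Atp6 (290 against 357 to 362), Nsdhl (21.2 against 23.4 to 23.7) and Map1lc3b (183 against 190 to 191) and highest for Sema6a (0.813 against 0.472 to 0.507) and Psmb10 (31.4 against 28.5 to 28.8). It alone held counts of Tmtc2 (0.0354 CPM), Nrk and Clic3 (0.0177 each). Library 15 was highest for Itgb2 (507 against 455 to 459) and Gbp5 (2.9 against 2.39 to 2.42). Library 16 was lowest for Agrn (252 against 308 to 312), Dsp (42.9 against 50.4 to 51.8), Ntn1 (55.3 against 62.1 to 62.9), Evpl (17.6 against 20.6 to 20.9) and Mvd (7.46 against 9.19 to 9.45), and held the counts of Epcam (0.0362).

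The vector difference itself differed between treated and untreated cells for 3 of the genes named, in edgeR's test of the difference without library 11. It was more positive under H2O2 by 0.31 on the log2 scale for Timm21 and more negative for Srcap (-0.49) and Tead1 (-0.34). With library 11 none of the 3 passed.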

How the results depend on the processing

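No paired analysis was possible because the library numbers run from 1 to 16 and none is shared between groups. Of 228 genes named in the text and tested, 201 kept direction and call in every alternative that gave them a value. Calls were lost for 17 and gained for 6, and the sign changed for 4 genes that were not called. With the filter of 10 CPM, Edem3 was at -0.01, Ftl1 at -0.00 and Keap1 at -0.03 on the log2 scale, and Nfe2l2 was at 0.00 with DESeq2 and 0.01 in the 3 fits of FPKM. Leaving out 1 library moved Ftl1 from -0.01 to 0.07, Keap1 from -0.02 to 0.03 and Nfe2l2 from -0.02 to 0.01.

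With all 16 libraries in the fit, 3189 genes were called higher and 2890 lower, and none was called in the opposite direction; 69 of 148 counts of list members moved by more than 1.5 times. With the filter of 10 CPM, which tests fewer genes, 564 genes were at least 2-fold higher and 279 lower, and 853 had a moderate decrease. Without a filter 1669 were at least 2-fold lower. Limma called 746 genes at least 2-fold higher and 339 lower on log2(FPKM + 1), 670 lower on log2(FPKM + 0.1), and 742 and 338 on log2(FPKM + 1) without a filter; it called 1 gene higher and 21 lower in edgeR in the opposite direction in both filtered fits, and 14 lower without a filter. The cause was not tested. edgeR's glmTreat against a 2-fold change called 1089 higher and 737 lower. Leaving out 1 library gave 5048 to 5251 higher and 5077 to 5327 lower calls, 1356 to 1447 and 1093 to 1207 at 2-fold, and 1116 to 1157 and 1320 to 1373 moderate ones. RLE size factors and DESeq2 shifted the median of all genes by 0.0092 and 0.0143 on the log2 scale.

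The difference between treated and untreated cells was the least settled count. edgeR called 0 positive and 0 negative genes with all 16 libraries, 3 and 3 with the filter of 10 CPM, and 47 and 119 without a filter, while DESeq2 called 82 and 475. Leaving out 1 library gave 0 to 39 positive and 0 to 131 negative, with none without library 1, 7, 9 or 15, 39 and 131 without library 2 and 34 and 103 without library 14; the cause was not tested. Depth limits genes at 0 counts in 1 group, whose fold has no upper bound, and those with 1 to 3 counts, whose ratios have wide counting intervals.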

Other observations

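Lysosome and autophagy genes had no common direction and no member that differed 2-fold. Of 29 lysosomal enzymes and membrane proteins 10 were higher with the empty vector and 12 lower, and of 26 autophagy genes 9 higher and 11 lower. Scarb2, a lysosomal membrane protein that carries glucocerebrosidase, was lower at 69.8 ± 5.94 against 112 ± 0.87 CPM (log2 change -0.69), and Gla, alpha-galactosidase A, higher at 39.9 ± 2.47 against 23 ± 0.801 CPM (0.80). Map1lc3b, the LC3 protein that coats autophagosomes, was lower at 188 ± 3.81 against 314 ± 6.53 CPM (-0.74), a call lost with all 16 libraries in the fit. Among 10 genes of the Myc network, Myc was higher at 998 ± 21.4 against 641 ± 27.1 CPM (0.64), a call lost in the same fit. Mxd3, a repressor that competes with Myc, was higher (1.27) and Mxd4, of the same family, lower at 64.1 ± 3.96 against 129 ± 2.25 CPM (-1.01).

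Genes of cell contact and signalling outside the groups of the report also differed in single members. Gpc4, a glypican that carries heparan sulfate, was lower at 8.4 ± 0.776 against 45.5 ± 1.11 CPM (-2.44) and Agrn, agrin of the basement membrane, at 295 ± 29 against 498 ± 12.2 CPM (-0.75). The laminin chain Lamb2 was higher at 246 ± 19.1 against 135 ± 4.13 CPM (0.87). Of 17 Hippo pathway genes and YAP targets 5 were higher and 9 lower. Ajuba, a LIM protein that restrains LATS kinases, was at 19.7 ± 0.563 against 50.3 ± 1.23 CPM (-1.35) and Ccn2, a target of YAP, at 2.92 ± 0.329 against 6.79 ± 0.184 CPM (-1.22), while Ankrd1, another YAP target, was higher at 37.9 ± 2.65 against 24.9 ± 1.16 CPM (0.61). In the Notch pathway 4 of 15 were higher and 6 lower. The ligand Dll4 was at 2.09 ± 0.333 against 0.374 ± 0.0899 CPM (2.48) and the target Nrarp at 8.17 ± 0.618 against 3.66 ± 0.272 CPM (1.16). Of 34 ABC transporters 14 were higher and 15 lower. Abcb1a, a mouse form of the drug exporter P-glycoprotein, was at 3.18 ± 0.244 against 0.795 ± 0.259 CPM (2.01) and Abca9 at 0.0761 ± 0.025 against 3.49 ± 0.264 CPM (-5.49). Of 7 membrane peptidases 6 were higher and 1 lower. Ace, angiotensin-converting enzyme, was at 71.8 ± 7.47 against 24.8 ± 1.05 CPM (1.54) beside Anpep, which the naming rule had picked for its fold. Adjusted p-values behind these calls are from edgeR over all genes tested, and no test of a list was made.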
